A study of Mus musculus with 20 samples.

Results

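Gene expression was compared between 5 primary osteosarcomas of p53R270H/+ mice, here R270H, and 4 primary osteosarcomas of p53+/- mice, here p53 het. Osteosarcoma is a malignant tumour of bone whose cells make bone matrix. The 9 tumours were taken by genotype from a series of 20 total RNA libraries, which holds 18 tumours. The strain of all mice was a mix of C57BL/6J and 129S/SvJae. R270H mice carry 1 Trp53 allele with the missense change R270H and p53 het mice carry 1 lost allele, and in both the other allele was wild type by genotype. Whether a tumour still had that wild-type allele is not in the labels, nor is where in the skeleton it grew, the age or sex of the mouse, or whether each tumour came from a mouse of its own. The R270H tumours are numbered 1 to 5 and the p53 het tumours 1 to 4, in the order in which they were deposited. A serial number stands in the titles of p53 het 1 and 2 but in those of neither p53 het 3 and 4 nor any R270H tumour, so the comparison is also given against p53 het 3 and 4. The R270H titles share a code of their own, and anything that goes with that code cannot be told apart from the genotype.

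p53 is a transcription factor that stops the cell cycle or kills cells after DNA damage and other stress, and mice with a single functional copy often develop bone tumours. Its most frequent cancer mutations are missense changes in the DNA-binding domain. Arginine 270 of mouse p53 touches DNA directly, so R270H belongs to the contact mutants, whose fold is largely kept. Such proteins lose binding to p53 target genes and have been reported to gain activities through other transcription factors. The comparison addresses which genes differ between tumours that start with a mutant p53 protein and tumours that start with a lost allele.

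The codon that the R270H allele changes is shown as the reference has it, since the deposited counts hold no tumour sequence. It lies in exon 8 of the longest annotated coding sequence of Trp53, which has 390 codons. The stretch below is chr11:69589586-69589630 on the plus strand of GRCm38, and capitals mark codon 270, CGT, which encodes arginine.
Trp53 codon 270: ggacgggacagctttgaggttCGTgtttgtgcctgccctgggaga

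Depth was alike in the groups, with 20650178 to 26757406 counts per R270H library and 22788668 to 29211623 counts per p53 het library. Levels are given in CPM, counts per M (mega) counts of a library, after scaling by the trimmed mean of M values, and 3 counts, the limit that a count of 0 allows, equal 0.126 to 0.137 CPM in R270H and 0.0982 to 0.140 CPM in p53 het libraries. These limits cover counting error only. Genes of bone-forming cells had high summed levels in every tumour. Runx2, the master regulator of osteoblasts, averaged 222 ± 47.9 CPM in R270H and 220.3 ± 66.8 CPM in p53 het tumours, and Col1a1, the main bone collagen, averaged 33919 ± 13946 and 57286 ± 28431 CPM in these groups (SD, n = 5 and 4). The 24 tested osteoblast and osteocyte markers, with Col1a1 among them, summed to between 52299 and 160206 CPM in R270H and between 67131 and 164448 CPM in p53 het tumours. On the second principal component of the 18 tumours, which held 12.6% of the variance, R270H libraries lay between 32.7 and 63.8, and p53 het 1 to 4 at -3.21, -19.7, 51.1 and 6.58. The p53 het tumours were thus spread over this axis and p53 het 3 lay among the R270H tumours. Tumours of mice with the p53 missense alleles R172H and R245W lay between -43.7 and 0.902 and between -82.2 and -43.7. Their titles hold serial numbers, so every tumour without a serial number lay above every tumour with one.

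Trp53 (chromosome 11, 69580359 to 69591873 on the plus strand) was read at 44.0, 25.5, 29.98, 52.1 and 30.2 CPM in R270H 1 to 5 and at 14.5, 31.6, 23.6 and 17.2 CPM in p53 het 1 to 4. R270H 1 and 4 stood above every p53 het tumour, and p53 het 2 was the one p53 het tumour above any R270H tumour. The difference in mean log2 CPM, 0.75, had p = 0.0556 in a two-sided exact permutation test, whose smallest possible p is 0.00794. Against p53 het 3 and 4 the groups did not overlap, with a difference of 0.80 and p = 0.0952 in the same exact test, which can then reach 0.0476. By genotype R270H mice carry 2 alleles that can be transcribed and p53 het mice 1, so these levels are not levels per allele.

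Targets that p53 activates showed no common direction. Of the 28 tested, 17 had a log2 fold above 0, and their median was 0.05, beside -0.01 over all 20616 genes tested, of which 48.7% had a log2 fold above 0. None of the 28 passed at an adjusted p under 0.05, and 3 with a positive and 1 with a negative fold had an unadjusted p under 0.05, which 5.21% and 6.25% of all genes did in these directions. In the comparison with p53 het 3 and 4 it was again 17 above 0, with a median of 0.09. Mdm2, which marks p53 for degradation and is itself switched on by p53, was read at 88.7, 64.0, 93.3, 50.8 and 56.6 CPM in R270H 1 to 5 and at 55.2, 56.6, 61.6 and 33.0 CPM in p53 het 1 to 4 (log2 fold 0.45 ± 0.20, SE, adjusted p = 0.397). Its groups overlapped. Cdkn1a, the cell cycle inhibitor p21, was read at 29.3, 38.5, 92.9, 52.6 and 22.8 CPM in R270H 1 to 5 and at 21.3, 71.4, 33.2 and 34.9 CPM in p53 het 1 to 4. Its log2 fold, 0.23 ± 0.42, had an adjusted p of 0.887 and turned to -0.17 without R270H 3. Perp, a desmosome protein that p53 induces, lay at 0.641, 1.01, 11.2, 49.1 and 0.708 CPM in R270H 1 to 5 and at 0.0862 to 1.54 CPM in p53 het tumours. R270H 3 and 4, which stood apart for Perp, also had the highest summed levels of epidermal genes, a list that itself holds Perp. Sesn2, the p53 target of lowest p, is taken up with the stress response genes.

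Genes listed as reported mutant p53 targets, with a factor through which mutant p53 is reported to act among them, were mixed as well. Of 24 tested, 14 had a log2 fold above 0 and the median was 0.12. At an unadjusted p under 0.05 there were 3 positive and 2 negative folds, beside 5.21% and 6.25% of all genes. The median was 0.28 against p53 het 3 and 4, -0.02 without p53 het 1 (11 of 24 above 0) and 0.30 without p53 het 2. Nfyb, a subunit of the CCAAT-binding factor NF-Y through which mutant p53 is reported to act, was read at 29.6, 25.4, 32.3, 27.4 and 26.2 CPM in R270H 1 to 5 and at 24.3, 17.0, 21.9 and 12.9 CPM in p53 het 1 to 4. Every R270H value lay above all p53 het values (log2 fold 0.57 ± 0.21, adjusted p = 0.295). Mad1l1, a spindle checkpoint gene, had a log2 fold of -0.41 ± 0.17 (adjusted p = 0.349) and Cxcl5, a chemokine, was at 10.5 CPM in R270H 4, between 0.221 and 0.972 CPM in the other R270H tumours and at most 0.345 CPM in p53 het tumours.

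Gene by gene, no gene passed in edgeR's quasi-likelihood test at an adjusted p under 0.05, 0% of the 20616 tested. At an unadjusted p under 0.05 there were 2364 genes, 11.5%, of which 1075 had a positive and 1289 a negative fold. DESeq2 called 320 genes in the same comparison, 136 higher and 184 lower, and limma voom with quality weights called 1. The groups did not overlap for 632 genes, 3.07% of those tested, with R270H higher in 1.59% and lower in 1.48%. The 12 genes of lowest p in each direction, among named genes with a mean of at least 1 CPM, are described next and none of them passed (adjusted p from 0.0791 to 0.154). DESeq2 called all 24. Of these 24, 21 had no overlap between the groups, as genes chosen by a low p tend to have. Against p53 het 3 and 4 alone, which are among those 4 tumours, the 24 log2 folds had the same signs, with adjusted p from 0.0710 to 0.403.

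Of the 12 with a positive fold, Pls3, plastin 3, which bundles actin and whose human counterpart is mutated in an X-linked osteoporosis, was read at 371, 320, 598, 288 and 267 CPM in R270H 1 to 5 and at 132, 166, 187 and 137 CPM in p53 het 1 to 4 (log2 fold 1.25 ± 0.23, adjusted p = 0.0791). The lowest R270H value stood well above the highest p53 het value. Enpp1 makes pyrophosphate, an inhibitor of mineralization, and was read at 113.3, 65.9, 243, 58.7 and 121.4 CPM in R270H 1 to 5 and at 30.8, 26.6, 29.9 and 19.7 CPM in p53 het 1 to 4 (log2 fold 2.17 ± 0.42, adjusted p = 0.0958). R270H 3 was the highest and the 4 p53 het values lay close together. Itgb1, the integrin beta 1 chain of receptors for collagen and fibronectin, was read at 757, 868, 896, 1147 and 803 CPM in R270H 1 to 5 and at 595, 483, 444 and 477 CPM in p53 het 1 to 4. Its log2 fold of 0.84 ± 0.18 (adjusted p = 0.124) was small but free of overlap. Afap1, which crosslinks actin and binds Src, was read at 54.3 to 73.7 CPM in R270H and at 38.5 to 47.4 CPM in p53 het tumours, also without overlap (log2 fold 0.61 ± 0.13, adjusted p = 0.129).

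Tlx1 (chromosome 19, 45150680 to 45156943 on the plus strand of GRCm38), a homeobox transcription factor that builds the spleen and drives some T-cell leukaemias, had the lowest p among the named genes. It was read at 4.03, 1.54, 9.18, 7.12 and 0.487 CPM in R270H 1 to 5 and at 0, 0.0862, 0.0467 and 0.0983 CPM in p53 het 1 to 4, that is 88, 35, 217, 169 and 11 counts in R270H against 0, 2, 1 and 3 counts in p53 het. Every p53 het library lay at or under the limit that a count of 0 allows. The ratio of summed counts, per scaled depth, was 74.7 with an exact 95% interval for counting error of 34.1 to 204, and the fitted log2 fold was 6.11 ± 0.98 (adjusted p = 0.0791). In tumours of mice with other p53 missense alleles it lay at 0.129 to 0.659 CPM (R172H) and at 0 to 0.221 CPM (R245W), so R270H 5 lay within the R172H range and the other 4 R270H tumours above it. Without R270H 5 the gene passed (adjusted p = 0.0226), and its adjusted p against p53 het 3 and 4 was 0.189. Tlx1 overlaps Tlx1os, annotated on the opposite strand, and reads of the pair cannot be told apart unless counting used strand, which the sources used here do not give.

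Ppbp, the platelet chemokine CXCL7, was read at 3.66, 5.24, 2.37, 16.9 and 17.0 CPM in R270H 1 to 5 and at 0.762, 0.776, 0.560 and 0.0983 CPM in p53 het 1 to 4 (log2 fold 4.04 ± 0.75, adjusted p = 0.0791). R270H 4 and 5 were highest, and p53 het 4, at 3 counts, was lowest. Hnrnpa2b1, which binds RNA in splicing and transport, was read at 519, 451, 398, 532 and 577 CPM in R270H 1 to 5 and at 278, 353, 223 and 211 CPM in p53 het 1 to 4 (log2 fold 0.90 ± 0.18, adjusted p = 0.0958). Its smallest R270H value lay above its largest p53 het value. Avpr1a, a vasopressin receptor, had a log2 fold of 2.78 ± 0.60 (adjusted p = 0.129) with R270H 2, at 1.94 CPM, inside the p53 het range of 0.819 to 2.54 CPM. The other 4 were Zfp40, a zinc finger gene (log2 fold 1.57), Rapgef5, which activates Rap GTPases (0.85), Lsm14a, a protein of messenger RNA storage bodies (0.76), and Klhl23, a Kelch family gene (2.28), all with adjusted p from 0.123 to 0.154. Zfp40 had overlapping groups.

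Of the 12 with a negative fold, Pigt, a subunit of the enzyme that attaches proteins to their lipid anchor, was read at 40.1, 33.4, 40.3, 51.8 and 68.5 CPM in R270H 1 to 5 and at 103, 146, 83.7 and 107 CPM in p53 het 1 to 4 (log2 fold -1.23 ± 0.22, adjusted p = 0.0791). Map7d1, a microtubule-associated protein, was read at 104, 120, 118, 114 and 112 CPM in R270H 1 to 5 and at 199, 268, 154 and 221 CPM in p53 het 1 to 4 (log2 fold -0.89 ± 0.16, adjusted p = 0.0791). All R270H values of both genes lay below all p53 het values. Chst12, which sulfates chondroitin in cartilage matrix, had a log2 fold of -1.95 ± 0.39 (adjusted p = 0.112), with p53 het 3, at 18.5 CPM, inside the R270H range of 10.3 to 22.5 CPM. Slc7a7, an amino acid transporter subunit, was at 15.3 to 21.5 CPM in R270H and at 23.2 to 71.0 CPM in p53 het tumours, and Gtf3a, the factor that starts 5S ribosomal RNA transcription, at 5.84 to 8.56 and 11.5 to 17.96 CPM in these groups.

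Mrps34, a mitochondrial ribosome protein, was read at 2.06, 1.496, 1.35, 2.44 and 1.82 CPM in R270H 1 to 5 and at 4.36, 6.60, 7.61 and 6.62 CPM in p53 het 1 to 4 (log2 fold -1.78 ± 0.30, adjusted p = 0.0791). Gnas, which encodes the stimulatory G protein alpha subunit, was read at 5.90, 7.39, 5.58, 7.502 and 6.46 CPM in R270H 1 to 5 and at 21.9, 36.1, 10.04 and 18.9 CPM in p53 het 1 to 4 (log2 fold -1.73 ± 0.30, adjusted p = 0.0791). R270H values of Gnas were nearly equal while p53 het 3 came closest to them. Jund, an AP-1 transcription factor, was at 4.14 to 8.20 CPM in R270H and at 9.43 to 28.1 CPM in p53 het tumours (log2 fold -1.39 ± 0.27, adjusted p = 0.0958). The levels of Mrps34, Gnas, Jund, Slc7a7, Gtf3a, Lsm14a, Afap1, Rapgef5 and Sesn2 are uncertain, because each overlaps another annotated gene and how the counting treated such reads is not given. The same holds for Rps3a3, Hist1h2al, Tap2, Icam1, Tagln, Spp1, Sh3bp5, Cd109, Pdia6, Atf3, BC002163, Mroh5, Rn7s1 and the 3 RNAs within host genes, all described below. Overlap with other genes was not looked up for every gene described.

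The 3 others, beside Sesn2, are pseudogenes or antisense RNA. Rps3a3, a processed copy of a ribosomal protein gene, was read at 0.824, 0.660, 0.634, 0.717 and 0.575 CPM in R270H 1 to 5 and at 84.2, 211, 1.68 and 201.9 CPM in p53 het 1 to 4. Hist1h2al, annotated as a histone pseudogene, had 0 counts in all R270H tumours, against 26.1, 26.98, 0.373 and 39.3 CPM in p53 het 1 to 4, at least 177-fold lower in R270H with 3 counts per library as the limit. For both, p53 het 3 lay near the R270H tumours, as did R172H 6, at 0.515 CPM of Rps3a3 and 0 of Hist1h2al, while R172H 4 was low for Rps3a3 alone, at 0.851 CPM. Rps3a1, the parent gene of Rps3a3, was read at 360 to 683 CPM in R270H 1 to 5 and at 241, 29.7, 558 and 42.5 CPM in p53 het 1 to 4. Within these 9 tumours it was low where the copy was high, but R245W 2 had 551 CPM of Rps3a1 beside 148 CPM of Rps3a3. Reads of such copies can be assigned to either, so both levels are uncertain. BC018473, annotated as antisense, reached 53.4 CPM in p53 het 1, 4.98 CPM in p53 het 4 and at most 0.280 CPM in the other 7 tumours.

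**Figure D1:**
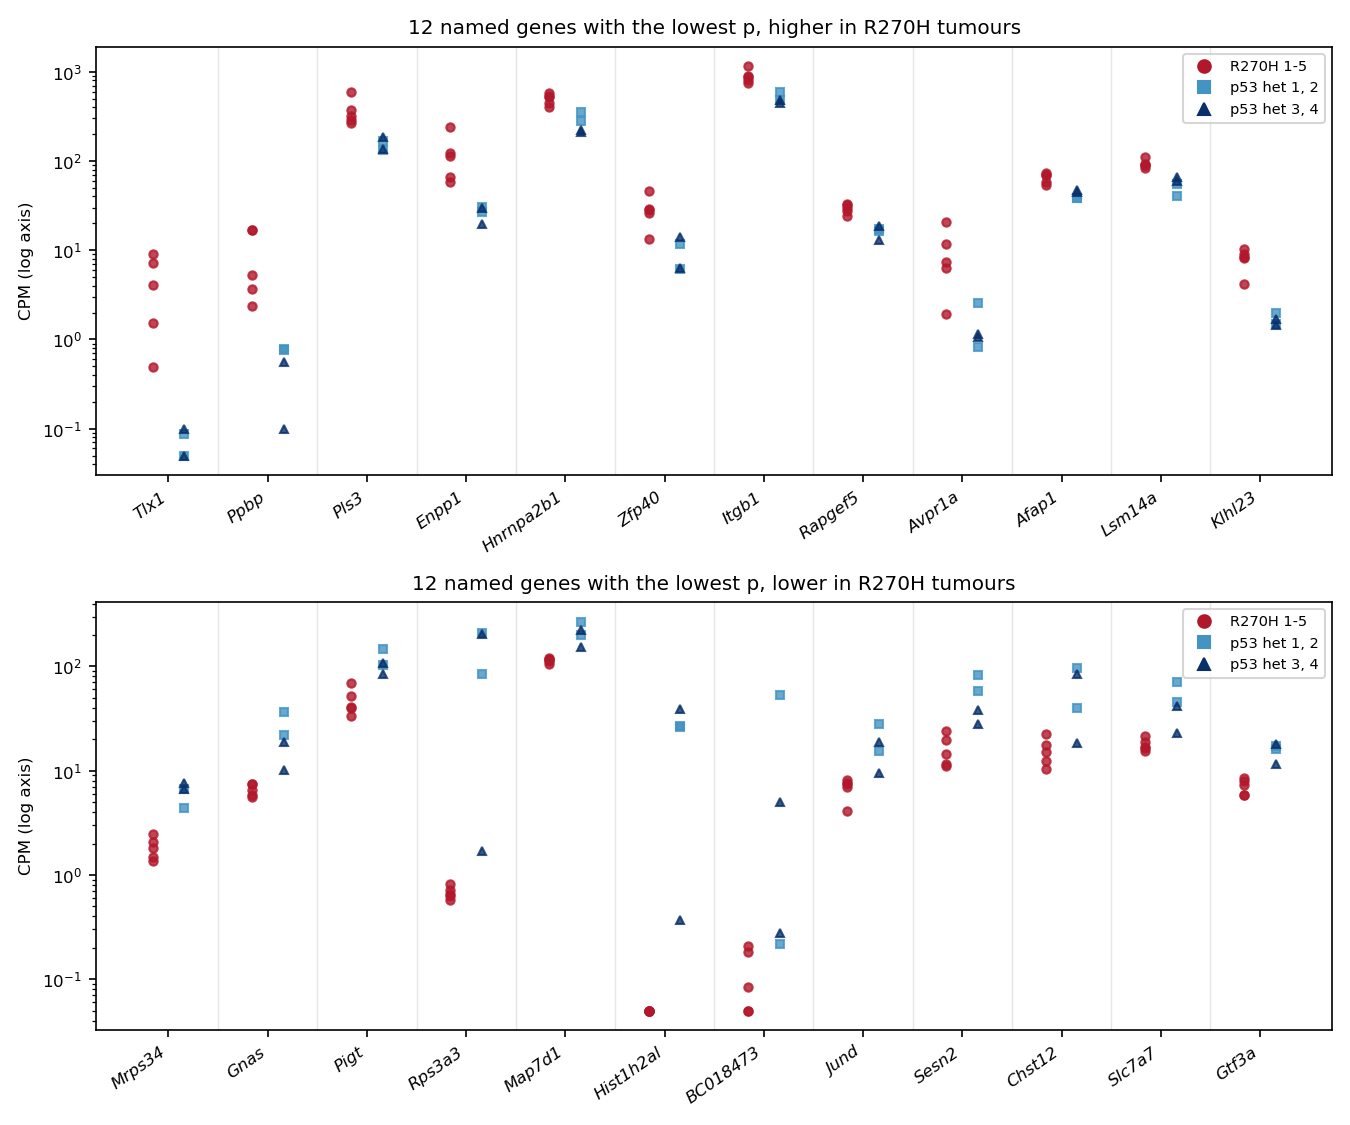
CPM on a log axis of the 12 genes of lowest p in each direction, with 1 point per tumour (circles, R270H 1 to 5; squares, p53 het 1 and 2; triangles, p53 het 3 and 4; values under 0.05 CPM are drawn at 0.05). Tlx1 reached 9.18 CPM in R270H and 0.0983 CPM in p53 het tumours, and the p53 het values of Rps3a3 ran from 1.68 to 211 CPM.

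The unfolded protein and integrated stress response is the set of pathways by which cells answer misfolded protein in the endoplasmic reticulum and amino acid shortage. The transcription factor ATF4 sits at its centre and switches on genes for amino acid supply, glutathione breakdown and feedback. Of its 22 genes tested, 13 had a log2 fold below 0 and the median was -0.24. At an unadjusted p under 0.05 there were 5 with a negative fold and 1 with a positive fold, beside 6.25% and 5.21% of all genes, and none passed after adjustment. Below 0 were 12 of 22 against p53 het 3 and 4 (median -0.17), with 3 at an unadjusted p under 0.05, beside 9.7% of all genes in either direction. Without p53 het 2 the median was -0.11. Against all 4 p53 het tumours, those with a negative fold at that p were Sesn2, Chac1, Asns, Atf4 and Trib3. Asns, Atf4 and Trib3 are named after their values were seen. In the same list Ddit3 and Atf3 had log2 folds of -0.40 and 0.48, neither at that p. Pdia6, a disulfide isomerase of the endoplasmic reticulum, had the positive fold at that p (0.81 ± 0.27, adjusted p = 0.262), at 229 to 438 CPM in R270H and 114 to 274 CPM in p53 het tumours.

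Sesn2, sestrin 2, which restrains growth signalling through mTORC1, was read at 11.7, 19.8, 11.04, 23.8 and 14.4 CPM in R270H 1 to 5 and at 58.6, 83.1, 27.7 and 38.5 CPM in p53 het 1 to 4 (log2 fold -1.69 ± 0.34, adjusted p = 0.102). Chac1, which breaks down glutathione, was read at 2.93, 2.51, 2.62, 6.57 and 1.55 CPM in R270H 1 to 5 and at 28.3, 41.3, 8.08 and 17.8 CPM in p53 het 1 to 4 (log2 fold -2.88 ± 0.65, adjusted p = 0.154). All R270H values lay below all p53 het values for both genes. Asns, asparagine synthetase, was read at 43.6, 27.1, 30.6, 99.0 and 40.1 CPM in R270H 1 to 5 and at 106, 142, 54.7 and 188 CPM in p53 het 1 to 4 (log2 fold -1.35 ± 0.50, adjusted p = 0.297), where R270H 4 lay above p53 het 3. Atf4 was read at 141, 141, 241, 125 and 130 CPM in R270H 1 to 5 and at 331, 352, 199 and 246 CPM in p53 het 1 to 4 (log2 fold -0.86 ± 0.32, adjusted p = 0.312), with R270H 3 inside the p53 het range.
The p53 het tumours also differed among themselves. Against p53 het 3 and 4 the log2 folds of Sesn2, Chac1, Asns and Atf4 were -1.04, -1.996, -1.34 and -0.52, and against p53 het 1 and 2 they were -2.13, -3.42, -1.37 and -1.13, where Sesn2 and Chac1 passed (adjusted p = 0.0145 and 0.0467).

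ATF4 and its partners bind the element TGATGNAA, in which N is any base. It was searched on both strands in the 250 bases before the start of each gene, taken from RefSeq promoters of GRCm38.p6. A match was found in 4 of the 19 genes of the list with a promoter in that table, against 3.91% of 27025 genes. Among genes with a negative fold at an unadjusted p under 0.05, Chac1 and Asns had a match, and Sesn2, Atf4 and Trib3 had none. The 4 matches are printed within 30 bases, to show which genes of the list hold the element, read on the strand of the gene, with the match in capitals. Those of Chac1, Atf3 and Herpud1 are on the strand opposite the gene. They describe the letters of these promoters and not binding in the tumours, and Atf3 and Herpud1 carried the element with log2 folds of 0.48 and -0.25, neither of which had an unadjusted p under 0.05.
Chac1, chr2:119351038-119351067, plus strand: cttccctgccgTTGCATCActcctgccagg
Asns, chr6:7693214-7693243, minus strand: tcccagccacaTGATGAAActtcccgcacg
Atf3, chr1:191183425-191183454, minus strand: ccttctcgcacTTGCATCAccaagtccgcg
Herpud1, chr8:94386306-94386335, plus strand: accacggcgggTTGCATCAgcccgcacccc

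Among lists of cell type markers, the highest medians belonged to neutrophils and granulocytes, epidermis, and erythroid cells and megakaryocytes, and each list had 1 tumour far above the rest. In bulk tissue fewer cells of a type and less RNA per cell cannot be told apart. Of 16 tested neutrophil and granulocyte genes 15 had a log2 fold above 0 (median 2.90), with 6 at an unadjusted p under 0.05 and none after adjustment. The number was again 15 against p53 het 3 and 4 (median 4.97), with 11 at an unadjusted p under 0.05. Over all genes, 5.21% had a positive fold at that p against all 4 p53 het tumours. Against p53 het 3 and 4, 9.7% of all genes had that p in either direction. S100a9, a calcium-binding protein of neutrophils, was read at 27, 40.5, 5.41, 7.75 and 406 CPM in R270H 1 to 5 and at 16.2, 1.98, 2.85 and 2.33 CPM in p53 het 1 to 4. Ltf, lactoferrin of neutrophil granules, was at 180 CPM in R270H 5 and 62.7 CPM in R270H 4, and Camp, an antimicrobial peptide, at 99.8 CPM in R270H 5 and at most 10.7 CPM elsewhere. The summed level of the list was 118, 197, 32.8, 104 and 1688 CPM in R270H 1 to 5 and 131, 64.3, 63.2 and 25.9 CPM in p53 het 1 to 4. Elane, Ctsg and Fcnb, which immature neutrophils make, had 0 counts in R270H 3 and 4. Without R270H 5 the median was 0.69 and 12 of the 16 lay above 0.

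Of 17 erythroid and megakaryocyte genes 15 had a log2 fold above 0 (median 2.61), 12 of them at an unadjusted p under 0.05, where 5.21% of all genes had a positive fold at that p. There were also 15 above 0 against p53 het 3 and 4 (median 3.05), with 9 at that p, beside 9.7% of all genes in either direction. Epb42, a protein of the red cell membrane skeleton, was read at 1.37, 2.24, 0.127, 0.211 and 29.2 CPM in R270H 1 to 5 and at 0.164 to 0.424 CPM in p53 het tumours, and Rhag, a red cell membrane protein, at 14.2 CPM in R270H 5 and at most 1.14 CPM elsewhere. R270H 1 and 2 came next and R270H 3 and 4 lay within or below the p53 het range of both genes. The beta globin Hbb-bs, singled out after its values were seen, was at 161, 89.5, 112, 29.3 and 1046 CPM in R270H 1 to 5 and at 40.8, 138, 88.4 and 42.0 CPM in p53 het 1 to 4. Summed over the list the level was 2432 CPM in R270H 5, 216 to 815 CPM in the other R270H tumours and 260 to 866 CPM in p53 het tumours. Without R270H 5 the median was 0.94, with 15 of 17 still above 0 and 3 at an unadjusted p under 0.05. Ppbp differed from its list, since its 5 R270H values lay above all p53 het values and R270H 4, poor in red cell genes, was nearly as high as R270H 5.

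Of 12 tested epidermal and epithelial genes 11 had a log2 fold above 0 (median 2.63), 6 of them at an unadjusted p under 0.05. The share of all genes with a positive fold at that p was 5.21%. Against p53 het 3 and 4 it was 11 of the 12 as well (median 2.07), with 1 at that p, beside 9.7% of all genes in either direction. The 6 others of the list, Krt1, Krt15, Dsg3, Lor, Flg and Ivl, did not pass the filter on low counts. Krt10, a keratin of differentiating skin cells, was read at 1.65, 1.45, 0.930, 71.2 and 0.487 CPM in R270H 1 to 5 and at 0.603 to 1.99 CPM in p53 het tumours. Dsp, a desmosome protein, was read at 0.137, 0.0880, 20.97, 82.1 and 0.177 CPM in R270H 1 to 5 and at 0.0424, 0.129, 0.0934 and 2.75 CPM in p53 het 1 to 4. The sum over the list was 390 CPM in R270H 4 and 97.1 CPM in R270H 3, but 9.06, 18.1 and 9.08 CPM in R270H 1, 2 and 5, against 11.95 to 32.02 CPM in p53 het tumours. Without R270H 4 the median was -0.11 and 5 of 12 lay above 0.

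Skeletal muscle markers were high in 1 tumour of each group. Their sum was 4643 CPM in R270H 2 and 441 to 1278 CPM in the other R270H tumours, against 7855 CPM in p53 het 4 and 359 to 669 CPM in the other p53 het tumours. The median of 20 genes was -0.47 against all 4 p53 het tumours, 2.63 without p53 het 4, -1.35 against p53 het 3 and 4 and 2.53 against p53 het 1 and 2. Tnnt1, Myh7 and Acta1, the 3 of lowest p, had log2 folds of 1.27, 2.32 and -1.28, with adjusted p from 0.586 to 0.767.

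**Figure D2:**
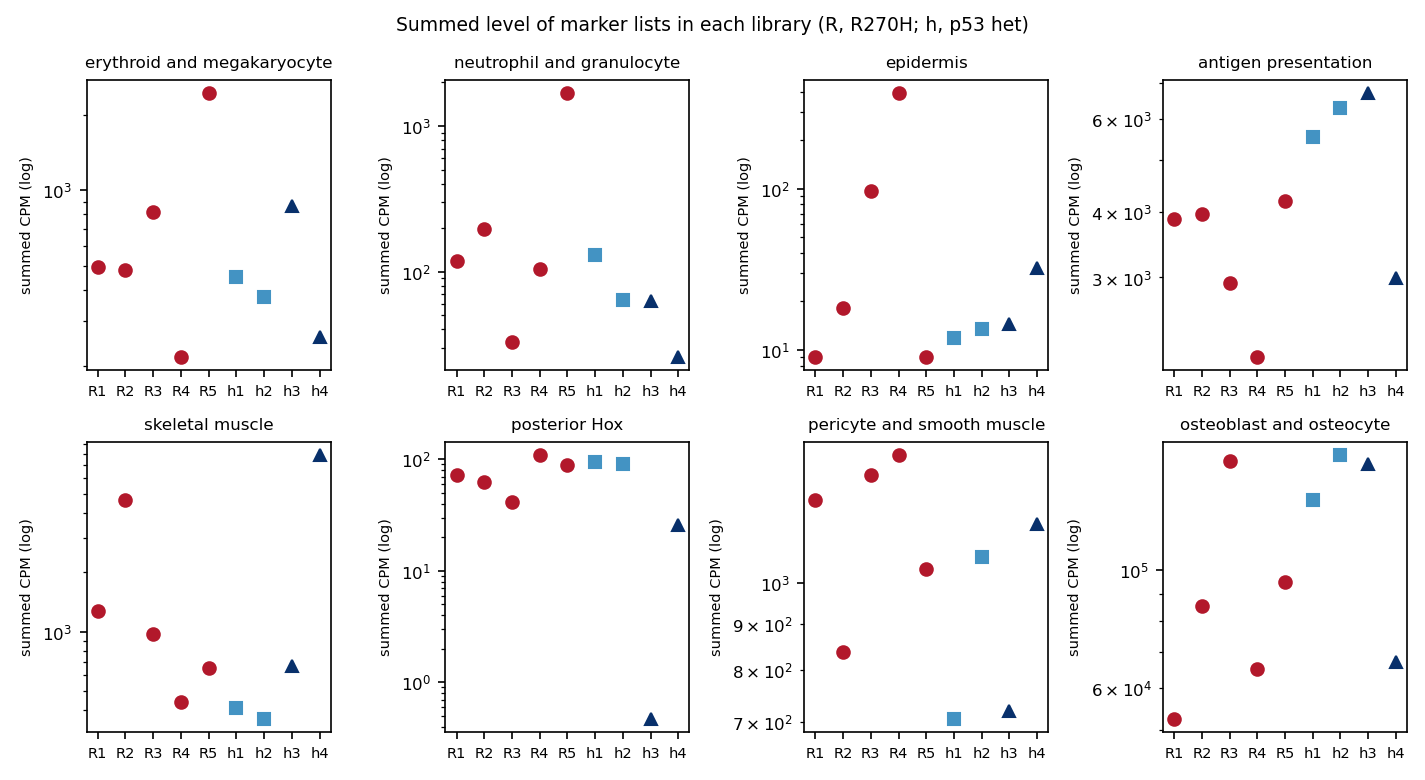
Summed CPM on a log axis of 8 gene lists in each tumour (R1 to R5, R270H 1 to 5, circles; h1 to h4, p53 het 1 to 4, squares and triangles). R270H 5 stood at 2432 CPM for erythroid and 1688 CPM for neutrophil genes, R270H 4 at 390 CPM for epidermal genes, and p53 het 3 at 0.467 CPM for posterior Hox genes.

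Antigen presentation genes load peptides onto major histocompatibility molecules for T cells. All 17 tested had a log2 fold below 0, with a median of -0.53, though only 3 had an unadjusted p under 0.05 and none passed after adjustment. The share of all genes with a negative fold at that p was 6.25%. Below 0 were 16 of 17 against p53 het 3 and 4 (median -0.41) and 15 of 17 against p53 het 1 and 2 (median -0.33). Tap2, a chain of the peptide transporter, was read at 20.8, 21.5, 16.7, 13.0 and 24.9 CPM in R270H 1 to 5 and at 27.9, 37.5, 51.6 and 30.9 CPM in p53 het 1 to 4 (log2 fold -0.93 ± 0.27, adjusted p = 0.204), without overlap. B2m, the light chain shared by class I molecules, was read at 941, 949, 904, 698 and 970 CPM in R270H 1 to 5 and at 1504, 3218, 2169 and 828 CPM in p53 het 1 to 4 (log2 fold -1.11 ± 0.44, adjusted p = 0.340). R270H values of B2m were close together and p53 het 4 lay among them. Tapbp, which helps peptide loading, had a log2 fold of -0.76 ± 0.32 (adjusted p = 0.365). The median over the list stayed between -0.65 and -0.26 with any 1 of the 9 tumours left out.

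T and NK cell genes summed to 15.1 to 68.0 CPM in R270H and 23.3 to 97.0 CPM in p53 het tumours, and 19 of 20 had a log2 fold below 0 (median -0.39), none at an unadjusted p under 0.05. Interferon response genes had 22 of 27 below 0 against all 4 p53 het tumours, but 9 of 27 against p53 het 3 and 4 and 24 of 27 against p53 het 1 and 2, where p53 het 2 had the highest sum, 2466 CPM against 786 to 1487 CPM in the other 8 tumours. Without p53 het 2, 23 of the 27 lay above 0 (median 0.26). Icam1, an adhesion molecule induced by NF-kB, was read at 20.1, 18.6, 15.5, 10.2 and 23.2 CPM in R270H 1 to 5 and at 42.7, 26.6, 29.7 and 26.4 CPM in p53 het 1 to 4 (log2 fold -0.84 ± 0.23, adjusted p = 0.198), without overlap. In the same list of 26 cytokine and NF-kB genes Relb, an NF-kB subunit, had a log2 fold of -0.58 ± 0.23 (adjusted p = 0.327), and 16 genes lay below 0. Macrophage genes had 14 of 18 below 0, with a median of -0.15.

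Bone lineage genes varied widely within the groups. The 24 osteoblast and osteocyte genes had a median of -0.11. Spp1, osteopontin of the bone matrix, was read at 3746, 646, 4886, 392 and 2714 CPM in R270H 1 to 5 and at 562, 700.3, 884 and 267 CPM in p53 het 1 to 4 (log2 fold 2.04 ± 0.62, adjusted p = 0.221). R270H 1, 3 and 5 were several times higher than every p53 het tumour and R270H 2 and 4 lay within their range. Osteoclast genes, from the cells that resorb bone, had 14 of 16 below 0 (median -0.52) and summed to 672 CPM in R270H 4 and 552 CPM in p53 het 4, against 2322 to 16273 CPM in the other 7 tumours. This median was 0.19 without p53 het 3. Chondrocyte genes had 11 of 16 below 0 (median -0.72), and 0.07 without p53 het 4. Prg4, the lubricin of joint cartilage, Hapln1, which links cartilage proteoglycans, and Sox9, the master regulator of cartilage, had log2 folds of 1.58, -3.50 and -1.51 and adjusted p from 0.262 to 0.560. Hapln1 was at 65.5 CPM in p53 het 2 and 45.6 CPM in p53 het 4, and at most 5.49 CPM in the other 7 tumours.

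Posterior Hox genes keep a record of position along the body axis and limb. Hoxa10 was read at 26.7, 16.7, 17.3, 27.4 and 33.3 CPM in R270H 1 to 5 and at 22.7, 21.2, 0 and 4.13 CPM in p53 het 1 to 4, and Hoxa11 at 2.35 to 17.7 CPM in R270H and at 1.86, 8.36, 0 and 0.0328 CPM in p53 het 1 to 4. The sum over 11 tested genes was 41.2 to 108 CPM in R270H tumours and 94.3, 90.1, 0.467 and 25.5 CPM in p53 het 1 to 4. The median log2 fold was -0.07 against all 4 p53 het tumours, 3.10 against p53 het 3 and 4 and -0.14 against p53 het 1 and 2. None of the 11 passed in any of these comparisons. Imprinted growth genes had 15 of 19 below 0 (median -0.60), with Gnas among them. The median was -0.11 without p53 het 2, -0.18 without p53 het 4, -0.17 against p53 het 3 and 4 and -0.16 against p53 het 1 and 2. H19, an imprinted RNA of embryonic growth, was at 10.5 to 59.9 CPM in R270H and at 1.14, 149, 7.14 and 658 CPM in p53 het 1 to 4.

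Genes of pericytes and smooth muscle, the contractile cells of vessel walls, had 12 of 14 above 0 (median 0.76, and 0.98 and 0.53 against p53 het 3 and 4 and p53 het 1 and 2). Tagln, an actin-binding protein, was at 0.704 to 0.969 CPM in R270H and at 0.216 to 0.654 CPM in p53 het tumours, without overlap but under 1 CPM in all 9. Notch3, the Notch receptor of pericytes, was read at 177, 58.5, 151, 162 and 227 CPM in R270H 1 to 5 and at 25.6, 160, 92.6 and 34.1 CPM in p53 het 1 to 4 (log2 fold 0.99 ± 0.45, adjusted p = 0.409), with overlap. Mcam, an adhesion molecule of the same cells, had a log2 fold of 0.72 ± 0.34 (adjusted p = 0.430). Genes of the Notch pathway, in which ligands on one cell release a transcription activator in its neighbour, had 14 of 18 above 0 (median 0.32), 15 of 18 against p53 het 3 and 4 (median 0.46) and 10 of 18 against p53 het 1 and 2 (median 0.18). The median was 0.13 without p53 het 1 and 0.64 without p53 het 2. Hes1, its classic target, was read at 26.3, 23.1, 28.2, 19.9 and 24.5 CPM in R270H 1 to 5 and at 8.81, 20.3, 15.6 and 8.13 CPM in p53 het 1 to 4 (log2 fold 0.89 ± 0.34, adjusted p = 0.325). Only R270H 4 and p53 het 2 overlapped. Rfng, which modifies Notch with sugar, had a log2 fold of -0.83 ± 0.25 (adjusted p = 0.221), and Dtx1, a Notch ubiquitin ligase, stood at 17.4 CPM in p53 het 3 and at most 1.08 CPM in the other 8 tumours.

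TGF-beta is stored in bone matrix and acts through SMAD proteins, and its feedback inhibitors are among its own targets. In the list of 32 TGF-beta and BMP genes 20 lay above 0 (median 0.11), against 15 without R270H 3 (median -0.05). The median was 0.29 against p53 het 3 and 4, 0.17 against p53 het 1 and 2 and 0.39 without p53 het 4. The ligand Tgfb1 was read at 58.1, 60.1, 80.0, 74.4 and 81.5 CPM in R270H 1 to 5 and at 90.3, 173, 98.8 and 115 CPM in p53 het 1 to 4 (log2 fold -0.75 ± 0.21, adjusted p = 0.198). Skil and Smad7, both feedback inhibitors, had positive folds. Skil was read at 157, 169, 350, 156 and 175 CPM in R270H 1 to 5 and at 89.5, 137, 117 and 115 CPM in p53 het 1 to 4 (log2 fold 0.82 ± 0.24, adjusted p = 0.206), and Smad7 at 23.5, 24.02, 33.5, 25.9 and 34.4 CPM in R270H 1 to 5 and at 18.9, 17.8, 17.9 and 20.5 CPM in p53 het 1 to 4 (log2 fold 0.59 ± 0.21, adjusted p = 0.281). In the list, 3 genes with a positive and 1 with a negative fold had an unadjusted p under 0.05, beside 5.21% and 6.25% of all genes. Tgfb1, Skil and Smad7, named for the lowest p in the list, had no overlap between the groups. Genes chosen by a low p tend to have none, and 3.07% of all genes had none. In the comparison with p53 het 3 and 4 the log2 folds of Tgfb1, Skil and Smad7 were -0.59, 0.80 and 0.56.

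Heat shock genes, which fold and rescue proteins, had 9 of 14 above 0 (median 0.41) and 4 with a positive fold at an unadjusted p under 0.05, as 5.21% of all genes had. Without R270H 1 there were 0 of these 4 (median 0.19), and against p53 het 3 and 4 also 0 (median 0.31). Dnajb1 was read at 78.1, 37.3, 48.3, 27.3 and 37.2 CPM in R270H 1 to 5 and at 23.2, 23.3, 34.97 and 27.3 CPM in p53 het 1 to 4. Hspa1b, the inducible HSP70, was at 73.4 and 52.8 CPM in R270H 1 and 4, between 4.44 and 7.44 CPM in R270H 2, 3 and 5 and between 2.99 and 14.8 CPM in p53 het tumours, and Hsph1 was at 289 CPM in R270H 1 and between 46.1 and 96.0 CPM in the other R270H tumours, against 49.0 to 59.7 CPM in p53 het tumours. Immediate early genes, which also respond to handling of tissue, had 13 of 20 above 0 (median 0.32), and -0.13 without R270H 3. Egr1 was at 174 CPM in R270H 3, between 17.2 and 30.7 CPM in the other R270H tumours and between 7.84 and 18.98 CPM in p53 het tumours, and Egr3 at 32.2 CPM in R270H 3 and at most 1.36 CPM elsewhere.

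Lists of growth and housekeeping took opposite signs against the 2 pairs of p53 het tumours. Mitosis genes had 17 of 25 above 0 against all 4 (median 0.16), 6 of 25 against p53 het 3 and 4 (median -0.30) and 24 of 25 against p53 het 1 and 2 (median 0.76). The median was -0.04 without p53 het 1, -0.01 without R270H 4 and 0.55 without p53 het 4. Cenpf, Mki67 and Cenpe, which act at the kinetochore or mark dividing cells, had log2 folds of 0.77, 0.64 and 0.49, with adjusted p from 0.241 to 0.556. Mki67 was read at 409, 358, 201, 450 and 507 CPM in R270H 1 to 5 and at 165, 167, 200.3 and 457 CPM in p53 het 1 to 4, so R270H 3 was like the low p53 het tumours and p53 het 4 like the high R270H tumours. Oxidative phosphorylation genes had a median of -0.04 against all 4, -0.41 against p53 het 3 and 4 and 0.34 against p53 het 1 and 2. Without p53 het 3 the median was 0.16, with 21 of 28 above 0. Their sum was 5011 CPM in p53 het 3 and 3332 CPM in p53 het 4, against 2806 to 3766 CPM in R270H tumours. Cox5b, a subunit of cytochrome c oxidase, kept 1 direction, at 74.3, 59.0, 75.1, 71.9 and 64.3 CPM in R270H 1 to 5 and at 94.5, 115, 153 and 101 CPM in p53 het 1 to 4 (log2 fold -0.75 ± 0.24, adjusted p = 0.241). DNA replication, homologous recombination, proteasome, cytosolic ribosomal protein, glycolysis and hypoxia, and MYC and ribosome biogenesis genes also had negative medians against p53 het 3 and 4 and positive ones against p53 het 1 and 2. Of all 48 lists, 23 had a median above that of all genes against all 4 p53 het tumours, 20 against p53 het 3 and 4 and 24 against p53 het 1 and 2.

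**Figure D3:**
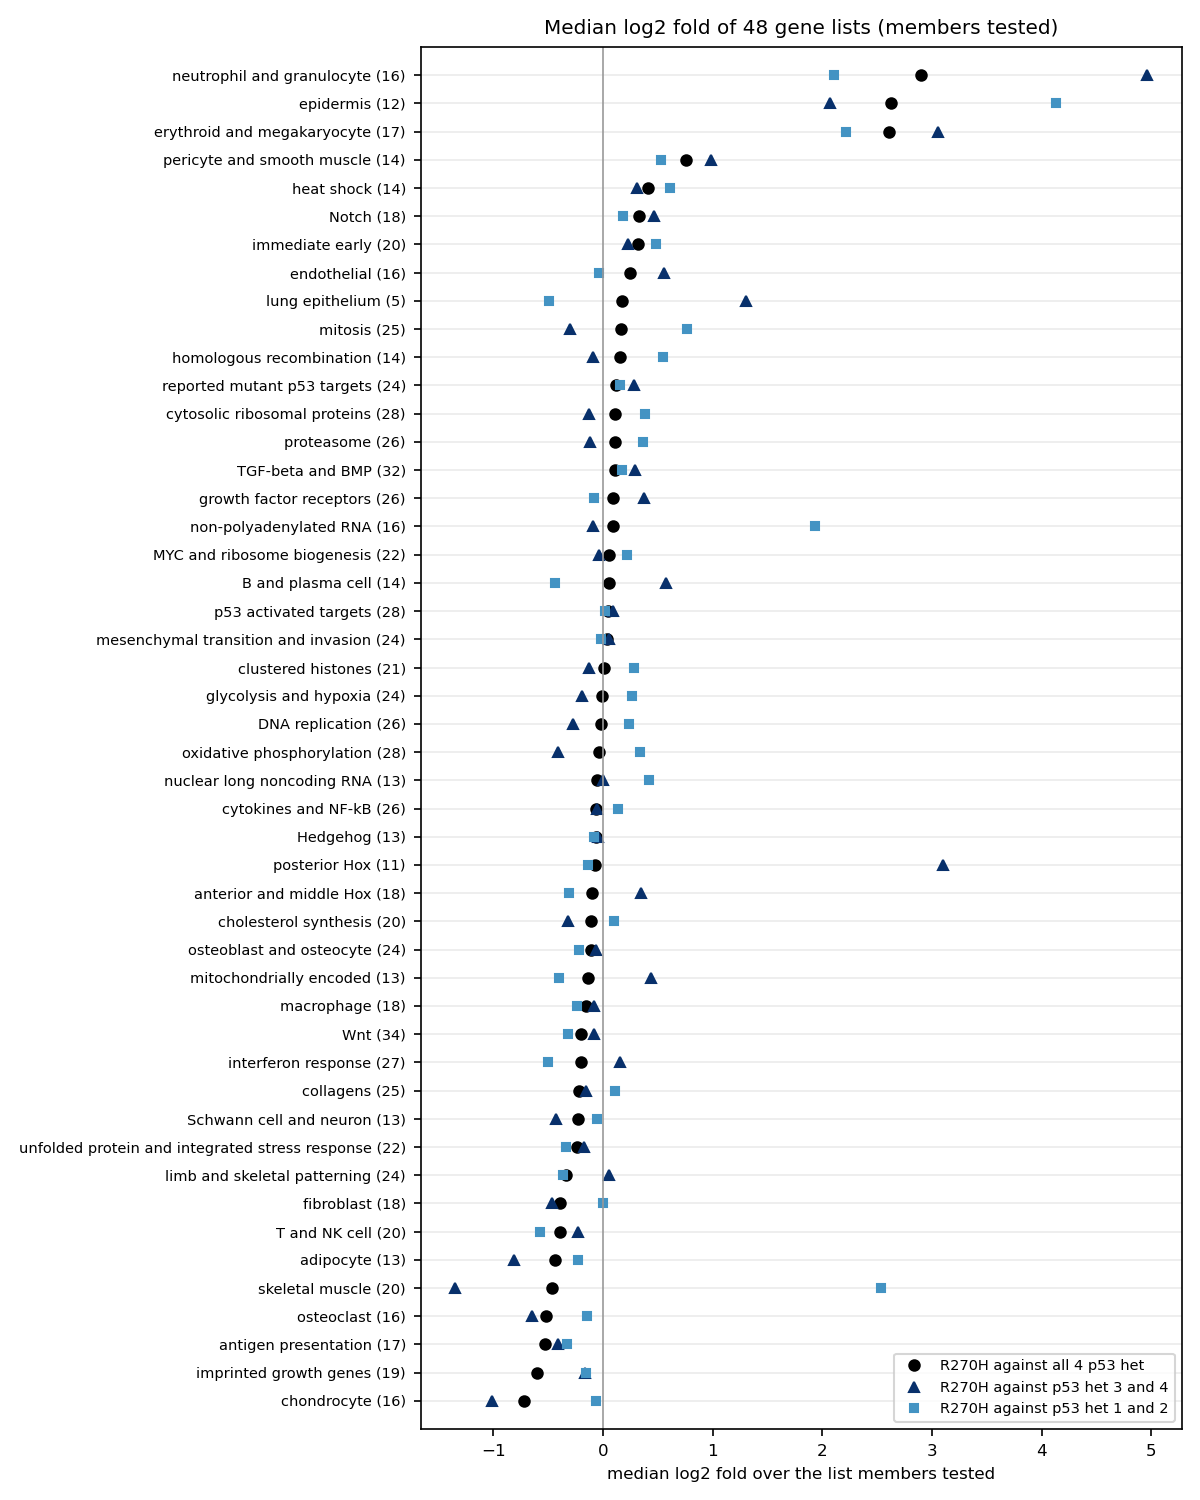
Median log2 fold of 48 gene lists (rows, with the number of genes tested) for R270H against all 4 p53 het (circles), p53 het 3 and 4 (triangles) and p53 het 1 and 2 (squares). Posterior Hox genes stood at 3.10 against p53 het 3 and 4 and -0.14 against p53 het 1 and 2, while antigen presentation genes stayed between -0.53 and -0.33 in all 3 comparisons.

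With p53 het 3 and 4 as the only p53 het tumours 4 genes passed, 0.0194% of those tested, with 9.7% at an unadjusted p under 0.05, and 50.3% of all genes had a log2 fold above 0. With only 2 tumours in p53 het, the groups did not overlap for 13.8% of genes. All 4 genes that passed make small RNAs. Rny3, a Y RNA, was read at 134, 120.1, 254, 110 and 133 CPM in R270H 1 to 5, against 3056 and 709 CPM in p53 het 3 and 4 (log2 fold -3.65 ± 0.57, adjusted p = 0.0400). In p53 het 1 and 2, however, it was read at 35.03 and 35.95 CPM, below every R270H tumour, and its call was lost in 7 other settings (without R270H 1, 2, 4 or 5, without p53 het 3, with only the compared groups and with a skeletal muscle score, adjusted p from 0.0842 to 0.219). The other 3 are known only by model numbers and are named after their values were seen. Gm25848, a small nucleolar RNA within Fbxo45, was read at 72.6, 68.0, 59.6, 49.2 and 68.3 CPM in R270H 1 to 5, against 0.373 and 0.229 CPM in p53 het 3 and 4 (log2 fold 7.72 ± 0.91, adjusted p = 0.00221). It was at 3.56 and 7.33 CPM in p53 het 1 and 2, against which it also passed (log2 fold 3.54 ± 0.70, adjusted p = 0.0402). Against all 4 p53 het tumours its adjusted p was 0.0791. Gm23442, a small nucleolar RNA within Prrc2a, was at 5.77 to 9.43 CPM in R270H tumours, against 186 and 33.98 CPM in p53 het 3 and 4 (log2 fold -3.97 ± 0.43, adjusted p = 0.00138), with 1.48 and 1.81 CPM in p53 het 1 and 2. Gm26244, a small nuclear RNA within Rock1, was at 0.0846 to 0.221 CPM in R270H tumours, against 6.96 and 1.51 CPM in p53 het 3 and 4 (log2 fold -4.70 ± 0.61, adjusted p = 0.00480), with 0.254 and 0.129 CPM in p53 het 1 and 2. The R270H values of Gm26244 lay near the limit that a count of 0 allows. In R172H and R245W tumours Rny3 was at 8.53 to 41.7 and 11.8 to 29.65 CPM, and Gm23442 at 0.814 to 1.83 and 1.19 to 2.34 CPM. Both were thus higher in every tumour without a serial number in its title than in every tumour with one. Gm25848 was at 1.91 to 9.22 CPM in R172H and 3.975 to 18.5 CPM in R245W tumours, and Gm26244 at 0.243 to 0.474 and 0.0471 to 0.451 CPM.

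Other small RNAs also lay on both sides of the R270H tumours in the p53 het pairs. Rny1, another Y RNA, was at 171 to 336 CPM in R270H 1 to 5 and at 47.6, 46.1, 2618 and 1876 CPM in p53 het 1 to 4. The median log2 CPM of small nucleolar RNAs lay between -0.14 and 0.24 in R270H tumours and at -0.98, -0.96, 0.43 and -0.05 in p53 het 1 to 4. Rn7sk, a longer nuclear RNA, ran from 17376 to 23283 CPM in R270H and from 12117 to 25716 CPM in p53 het tumours. The part of library preparation in these differences was not tested.

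**Figure D4:**
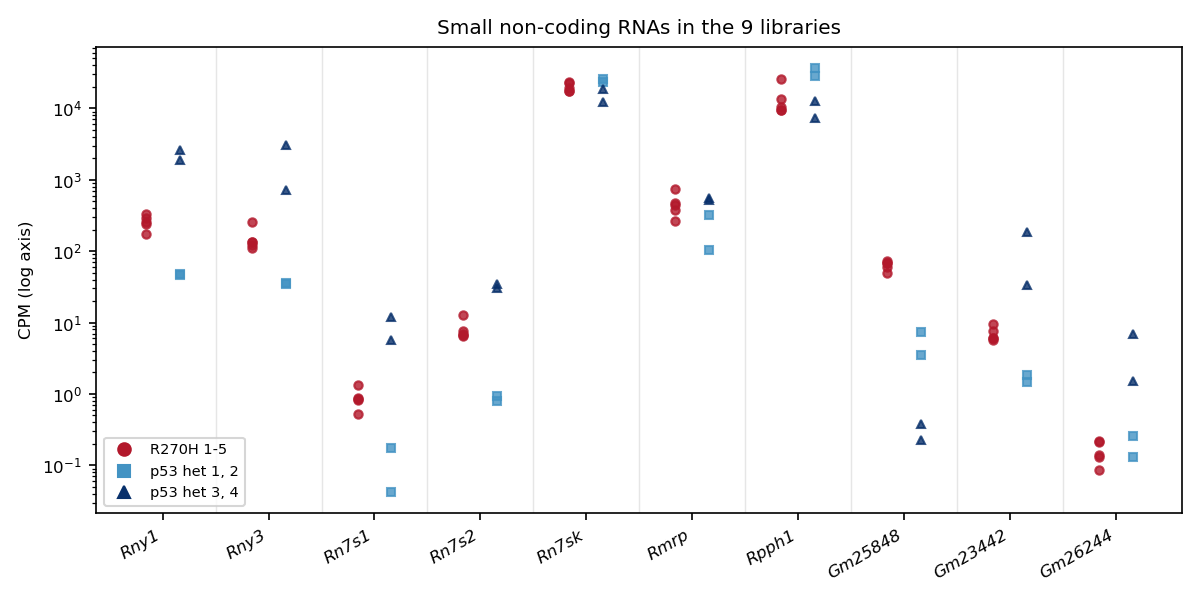
CPM on a log axis of 10 small non-coding RNAs with 1 point per tumour (circles, R270H; squares, p53 het 1 and 2; triangles, p53 het 3 and 4). For Rny3 the R270H tumours, at 110 to 254 CPM, lay between p53 het 1 and 2, at 35.03 and 35.95 CPM, and p53 het 3 and 4, at 3056 and 709 CPM.

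Of the 12 named genes of lowest p, 6 in each direction, against p53 het 3 and 4, those apart from Rny3 did not pass (adjusted p from 0.0710 to 0.189). Hnrnpa2b1 had the lowest p of the higher ones, with a log2 fold of 1.19 ± 0.20 (adjusted p = 0.0710). Ednrb, the endothelin B receptor, was read at 105, 61.1, 89.7, 104 and 83.6 CPM in R270H 1 to 5 and at 24.8 and 32.9 CPM in p53 het 3 and 4 (log2 fold 1.62 ± 0.31, adjusted p = 0.0952), but at 71.8 and 95.9 CPM in p53 het 1 and 2. For Sh3bp5, a regulator of Rab11, the R270H tumours lay between the p53 het pairs. It was at 19.6 to 27.7 CPM in R270H, 10.3 and 7.57 CPM in p53 het 3 and 4 and 37.0 and 31.6 CPM in p53 het 1 and 2. Cd109, a co-receptor of TGF-beta, was at 247 to 730 CPM in R270H and at 164 and 100.1 CPM in p53 het 3 and 4 (log2 fold 1.64 ± 0.37, adjusted p = 0.164), with 314 and 177 CPM in p53 het 1 and 2. Of the lower ones, Tmem132b, BC002163 and Mroh5 were highest in p53 het 4, at 10.8, 12.1 and 8.95 CPM, and at 3.36, 0.327 and 0.373 CPM in p53 het 3, while Rn7s1, a signal recognition particle RNA, was at 12.1 and 5.74 CPM in p53 het 3 and 4 and at 0.528 to 1.31 CPM in R270H tumours. Mrps34 had a log2 fold of -1.95 ± 0.35 (adjusted p = 0.0718).

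With p53 het 1 and 2 as the only p53 het tumours 81 genes passed, 0.393% of those tested, 46 of them higher (0.223%) and 35 lower (0.17%), and 52.3% of all genes had a log2 fold above 0. Small nucleolar RNAs made up 20 of the 46 higher genes and protein-coding genes 13, while 20 of the 35 lower genes were protein-coding. Of all 20616 genes tested, 175 were small nucleolar RNAs and 15050 were protein-coding, so protein-coding genes had a smaller share in both directions than over all genes. Among the lower ones were Gnas (log2 fold -2.14 ± 0.30, adjusted p = 0.00684), Sesn2 (-2.13 ± 0.34, adjusted p = 0.0145), Slc7a7 (-1.71 ± 0.29, adjusted p = 0.0169), Map7d1 (-1.04 ± 0.19, adjusted p = 0.0302), Pigt (-1.41 ± 0.25, adjusted p = 0.0308) and Jund (-1.67 ± 0.31, adjusted p = 0.0319). Against p53 het 3 and 4 the log2 folds of these 6 were -1.14, -1.04, -0.87, -0.72, -1.02 and -1.05, none of which passed. The count was 18 without p53 het 2 and 130 without p53 het 1, where a single p53 het tumour is assumed to vary like the other groups. The comparisons share the 5 R270H tumours.

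Levels were also summarized by chromosome, as the median deviation of protein-coding genes with a mean of at least 5 CPM from their median over the 18 tumours. Of 20 chromosomes, 1 had no overlap between the groups. On chromosome 4 the median over 704 genes was -0.0065, -0.09, -0.05, -0.02 and -0.06 in R270H 1 to 5 and -0.0032, 0.12, 0.07 and 0.14 in p53 het 1 to 4, a difference of -0.13 in log2 units. R270H 1 and p53 het 1 were nearly level. The difference was -0.23 on chromosome 15, with R270H tumours between -0.24 and -0.04 and p53 het tumours between -0.07 and 0.23. Single tumours departed further on other chromosomes, R270H 1 by 0.45 on chromosome 13, R270H 2 and 3 by 0.54 and 0.56 on the X chromosome, p53 het 1 by -0.57 on chromosome 16 and p53 het 2 by -0.49 on chromosome 18. Within 10 Mb of Trp53 on chromosome 11, 396 genes were tested, 11.1% had an unadjusted p under 0.05, near the 11.5% of all genes, and the median log2 fold was -0.08.

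**Figure D5:**
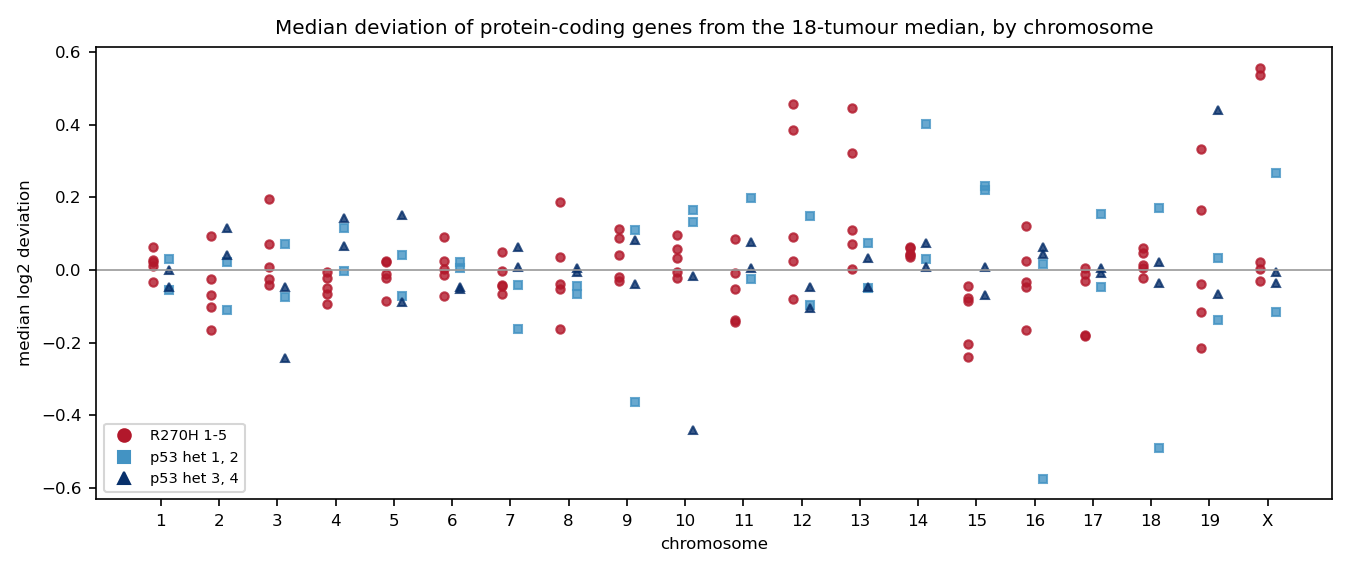
Median log2 deviation of protein-coding genes from their median over 18 tumours, by chromosome, with 1 point per tumour (circles, R270H; squares, p53 het 1 and 2; triangles, p53 het 3 and 4). On chromosome 4 all R270H tumours lay below all p53 het tumours, and on chromosome 15 R270H tumours lay at or under -0.04.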

How the data were processed

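Frozen tumours were crushed in Trizol, and total RNA was cleaned on columns and made into Illumina libraries, per the labels' protocols. Reads were checked with FastQC, per the series' design text, and aligned to GRCm38 with STAR 2.6.0b, per the submitters' processing notes, which name DESeq2 without a version. The counting program, its annotation and its strand setting are not given in the sources used here. The deposited table holds raw counts, 1 column per library, for 49585 gene IDs, of which 49326 matched a symbol in GENCODE M21, with coordinates on GRCm38.

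Counts of the 18 tumours were fitted in edgeR 4.0.16 (R 4.3.3) by quasi-likelihood, with trimmed mean of M values scaling, filterByExpr (minimum count 10, minimum total count 15; 20616 genes kept) and 1 mean per genotype, leaving 14 residual degrees of freedom (13 with p53 het divided by kind of title). The R172H (n = 6) and R245W (n = 3) tumours only add to the estimate of spread. p-values were adjusted by Benjamini-Hochberg over all genes at 0.05 and measure the spread between these tumours, which may in part be technical. Standard errors were taken as the absolute log2 fold over the root of its F statistic. A prior count of 2 was added for log2 CPM, on which Trp53 was also tested by exact permutation. The fit was also run on simulated counts with known changes in R270H, whose outcome is not given here. These counts held no difference between the p53 het pairs, so they cannot show how the fit handles one.

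Named genes were the 12 highest and 12 lowest folds among passing genes without overlap and with a mean of at least 1 CPM, filled by the lowest p (6 a side against p53 het 3 and 4); this left out gene models with no other name, symbols ending in -ps, and immunoglobulin and T cell receptor segments. For many of the lists described the 3 genes of lowest p are named, while other lists are given with fewer members or none. Some members outside this rule are named too. The 48 lists, with 1011 entries, and the members were chosen with earlier results of these data known, and no list was tested. Other settings were DESeq2 1.42.0, its size factors in edgeR, no filter on low counts, limma voom (limma 3.58.1) with quality weights, only the groups compared, a skeletal muscle score, each tumour left out, either p53 het pair, and, added after seeing the data, leave-one-out fits against p53 het 1 and 2, list medians with each tumour left out, and fits without small RNA genes or with protein-coding genes only. The 2 cell line libraries were not used.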

Additional observations from a re-analysis of the deposited data

Results flagged for a closer look

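Within groups of 4 or 5 tumours, 17 of 166 sets of values had a highest or lowest tumour that stood apart from the others by Dixon's 95% criterion. Chance gives this in about 1 in 20 sets if they are independent and normally distributed. These sets hold CPM without log scaling, share tumours and include genes chosen by low p. That rate need not apply to them, and the 17 are a description only. Tumours rich in blood or skin genes were R270H 5, with 1688 CPM summed over neutrophil and granulocyte genes (next 197 CPM) and 2432 CPM over erythroid and megakaryocyte genes (next 815 CPM), and R270H 4, with 390.5 CPM over epidermal genes (next 97.1 CPM). R270H 2 stood apart for skeletal muscle genes at 4643 CPM (next 1278 CPM) and for lung epithelium genes at 32.8 CPM (next 9.38 CPM), and R270H 3 for immediate early genes at 1262 CPM (next 600 CPM) and for Rny3 at 254 CPM (next 134 CPM). Tmem132b was at 0.664 CPM in R270H 5 (next 0.183 CPM).

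Among p53 het tumours, p53 het 4 stood apart for skeletal muscle genes at 7855 CPM (next 669 CPM), mitosis genes at 2606 CPM (next 1216 CPM), MYC and ribosome biogenesis genes at 2521 CPM (next 1824 CPM), epidermal genes at 32.0 CPM (next 14.6 CPM), BC002163 at 12.1 CPM (next 0.327 CPM) and Mroh5 at 8.95 CPM (next 0.373 CPM). BC018473 was at 53.4 CPM in p53 het 1 (next 4.98 CPM), and the reported mutant p53 targets summed to 1699 CPM in p53 het 2 (next 1362 CPM). Growth factor receptors summed to 1936 CPM in p53 het 3, the lowest, where the next tumour had 2506 CPM.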

How the results depend on the processing

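No paired analysis was possible because numbers of tumours were given in accession order and pair nothing. The count of genes passing against all 4 p53 het tumours, 0 in edgeR, was 320 with DESeq2, 2 without the filter on low counts, 1 with limma voom, 4 with only p53 het 3 and 4 and 81 with only p53 het 1 and 2. It ran from 0 to 21 with 1 tumour left out, reaching 21 without p53 het 3 and 2 without R270H 5, and from 18 to 130 in leave-one-out fits against p53 het 1 and 2, with 24, 33, 33, 25 and 29 without R270H 1 to 5. The count of 4 against p53 het 3 and 4 was 148 with DESeq2, 9 without the filter, 10 with limma voom, 2 with only the groups compared and 0 without small RNA genes or with protein-coding genes only, and ran from 3 to 37 with 1 tumour left out (37 without p53 het 3, 7 without p53 het 4). The cause of these moves was not tested. The difference in Trp53, 0.75, ran from 0.57 to 0.95 with 1 tumour left out and, without p53 het 2, had p = 0.0179 in an exact permutation test. The log2 fold of Cdkn1a, 0.23, ran from -0.17 (without R270H 3) to 0.67 with 1 tumour left out. It reversed to -0.030 with limma voom and, against p53 het 1 and 2, to -0.62 without p53 het 1, -0.39 without R270H 3 and -0.032 without R270H 4. Of 911 recomputed folds of named genes 799 kept direction and side of the threshold, 100 came to pass, 7 no longer passed, all of Rny3, and 5 reversed. Of 96 list medians recomputed against a pair of p53 het tumours, 26 took the other sign. Depth limits the level of Tlx1 in p53 het tumours, where its counts ran from 0 to 3.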
